A study of Homo sapiens with 4 samples.

Results

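The collagen and EMILIN genes are the genes of the array whose symbol is COL, a number, A and a number (the α chains of collagens) or EMILIN and a digit. They were found through the accession of each probe, since the array files used here carry no gene symbols, and they came to 58 of 34127 probes, which stand for 46 of 19062 matched genes. Of the 34127 probes, 9301 had an accession without a match, so the members may be incomplete. Of 47 such symbols in the RefSeq table, COL13A1 had no matched probe. RNA from SB cells, a stable line of the human tongue squamous carcinoma cells SAS that carries pLKO.1-LYRIC shRNA-B against AEG-1 (LYRIC, listed as MTDH), was hybridized with RNA from SCt control cells on each of 4 two-colour arrays. For the control, the labels name the pLKO.1 vector and the methods a scrambled shRNA. Both lines went through 14 days of puromycin selection (2 μg/ml) and were grown in it afterwards. SB RNA was labelled red and SCt RNA green on all 4 arrays, with 0 dye-swapped arrays, so that the preference of a probe for 1 dye and a difference between the cells cannot be told apart. The labels call the 4 arrays biological replicates, while the methods speak of 3 for work in vitro, and whether they came from separate cultures is not given in the sources used here, and SDs and p-values cover the spread between these arrays, which may be technical. The lines are described as stable clones, and a difference between clones that has nothing to do with AEG-1 cannot be told apart from the knockdown.

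Collagens are trimers of α chains that form the scaffold of the extracellular matrix. Fibrillar collagens build banded fibres, type IV collagens build the meshwork of basement membranes, and other types bind to fibres, form beaded filaments or anchor an epithelium to the tissue beneath it. EMILINs are glycoproteins of elastic fibres, and squamous epithelial cells are known to make chiefly the collagens of the basement membrane and its anchoring structures.

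The arrays were comparable in signal. The median intensity of a spot lay between 655 and 875 in the SB channel and between 362 and 588.5 in the SCt channel, so that the red value of a spot is usually the higher even where the normalized ratio is below 0. All values given as log2 ratios are SB over SCt after background correction and loess normalization, and a gene was called where limma, with Benjamini-Hochberg adjustment over all 28507 probes tested, gave an adjusted p under 0.05. The number of arrays limits their precision. Counts of genes at an unadjusted p under 0.05 from limma are given without the share of all genes at that threshold and are not read as results. MTDH, the target of the shRNA, had log2 ratios of −3.18, −3.01, −3.12 and −3.41 on arrays 1 to 4, the direction that the labels give.

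The carcinoma cells were checked by their markers. All 10 epithelial markers were well above background in both channels on 4 arrays. None was called by limma (median log2 ratio −0.03, with 4 at an unadjusted p under 0.05). The highest mean intensity was that of KRT8, a keratin of simple epithelia. Intensities of different probes do not rank the levels of genes, here or in the lists below. "Well above background" is the scanner software's own test of a spot against its local background. It is a lenient measure, since 83.7% of all probes met it on every array in SB cells and 83.2% in SCt cells, and the 5 leukocyte markers and 4 endothelial markers met it as well. Of 10 fibroblast markers, 7 met it, VIM having the highest intensity, whereas LUM met it on 0 arrays and PDGFRA on 1 array in each channel. None of these markers was called by limma (1 fibroblast marker had an unadjusted p under 0.05), and the median log2 ratio was −0.08 for the fibroblast, 0.01 for the endothelial and 0.04 for the leukocyte list. The summed intensity of the fibroblast list on arrays 1 to 4 was 18343, 13435.5, 17509 and 41110.6 in SB cells and 11165, 8197.5, 13129 and 23529.5 in SCt cells. For the epithelial list the sums were 466442, 505800, 562515 and 306114 in SB cells and 195022, 246885, 316419 and 169231 in SCt cells. In both channels array 4 thus had the highest fibroblast sum and the lowest epithelial sum, for a reason that was not tested. The fibroblast sums rested mostly on VIM, which had 34975.1 in SB cells and 19317 in SCt cells on array 4. They therefore do not describe the list as a whole. For the endothelial list, led by CDH5, these sums were 1779, 1648, 2008 and 1490 in SB cells and 945.6, 1035, 1397 and 880.2 in SCt cells. For the leukocyte list, whose sums rested mostly on 1 PTPRC probe, they were 30330, 27837, 32110 and 36874 in SB cells and 13511, 17518, 19382 and 21494 in SCt cells. Both lines are cultured clones of the SAS carcinoma line, so signal at these probes is not read as a sign of other cell types. The part of other cells in the results below was not tested.

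Most of the members were detected in both channels. Of the 58 probes, 43 were well above background on all 4 arrays in SB cells and 43 in SCt cells, which is 74.1% in each channel. A probe was tested where 1 channel met this on all 4 arrays, and 44 probes of 37 genes did. The 9 genes without such a probe were the fibrillar COL2A1, COL3A1 and COL11A1, the basement membrane chains COL4A3 and COL4A4, and COL6A5, COL6A6, COL15A1 and COL21A1. Of these, 6 were well above background on 0 arrays in both channels. COL3A1, the chain of type III collagen that fibroblasts make, was 1 of them, with intensities of 49.5, 62, 52 and 51 in SB cells and 34, 43, 40 and 35 in SCt cells. COL4A3 was well above background on 2 arrays in SB cells and on 1 in SCt cells, and COL4A4 and COL6A5 on 3 arrays in each channel.

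**Figure D1:**
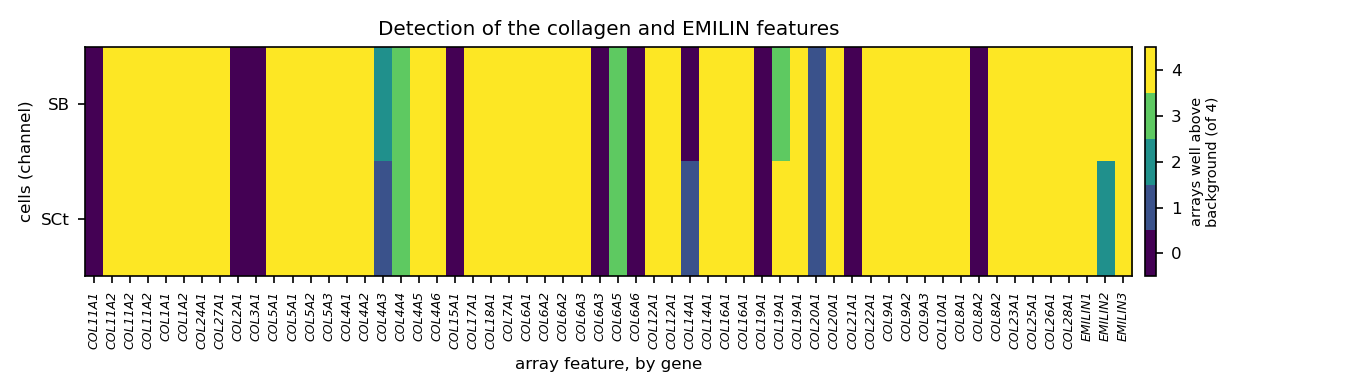
Number of arrays, of 4, on which each of the 58 probes was well above background, with SB cells in the upper row and SCt cells in the lower row. The channels differ at 4 probes, of which EMILIN2 (4 arrays in SB cells and 2 in SCt cells) is the only one whose gene was called.

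No member was well above background on all 4 arrays in 1 channel and on 0 or 1 in the other. EMILIN2 came nearest, with 4 arrays in SB cells and 2 arrays in SCt cells. The filter therefore kept EMILIN2 through SB cells alone, the group in which it was higher, and the counts below are over the genes that passed, not over all 46.

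Of the 37 genes tested, 3 were called (8.11%), 1 higher and 2 lower in SB cells. Over all 16583 genes tested, 4.20% were called, 1.22% higher and 2.97% lower. That share was 2.56% without array 1, 1.76% without array 2, 0.833% without array 3 and 7.51% without array 4, and the members called were then 2, 2, 1 and 4. Among 37 genes a single call makes 2.70%, so the members' share is read as near the background. The 3 genes called were EMILIN2, which was higher, and COL17A1 and COL4A6, which were lower. Among the 34 collagens tested, without the EMILINs, 0 were called higher and 2 lower (5.88%). EMILIN2 is also among the genes that the paper shows for their fold change in its microarray comparison of these cells. Its call here is therefore no separate evidence. With both channels required to be well above background on 4 arrays, which leaves out EMILIN2, 2 of 36 members were called. Of these 0 were higher and 2 lower, and 4.20% of all genes were called there. The median log2 ratio of the 37 genes was 0.03, with 24 above 0 and 13 below it, against a median of 0.00 over all genes, of which 50.9% were above 0. For 27 of the 37 genes the 95% interval of the log2 ratio lay wholly within a 1.2-fold change in either direction, and for 74.7% of all genes it did. Between arrays, the log2 ratio of a member had a median SD of 0.11, against 0.11 over all genes. Median centring of the arrays in place of loess, which leaves the dye effect that varies with intensity in the ratios, called 18 members, 11 higher and 7 lower, and 30.4% of all genes. It turned the split of all calls from 377 higher and 679 lower probes to 5599 higher and 3340 lower ones.

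**Figure D2:**
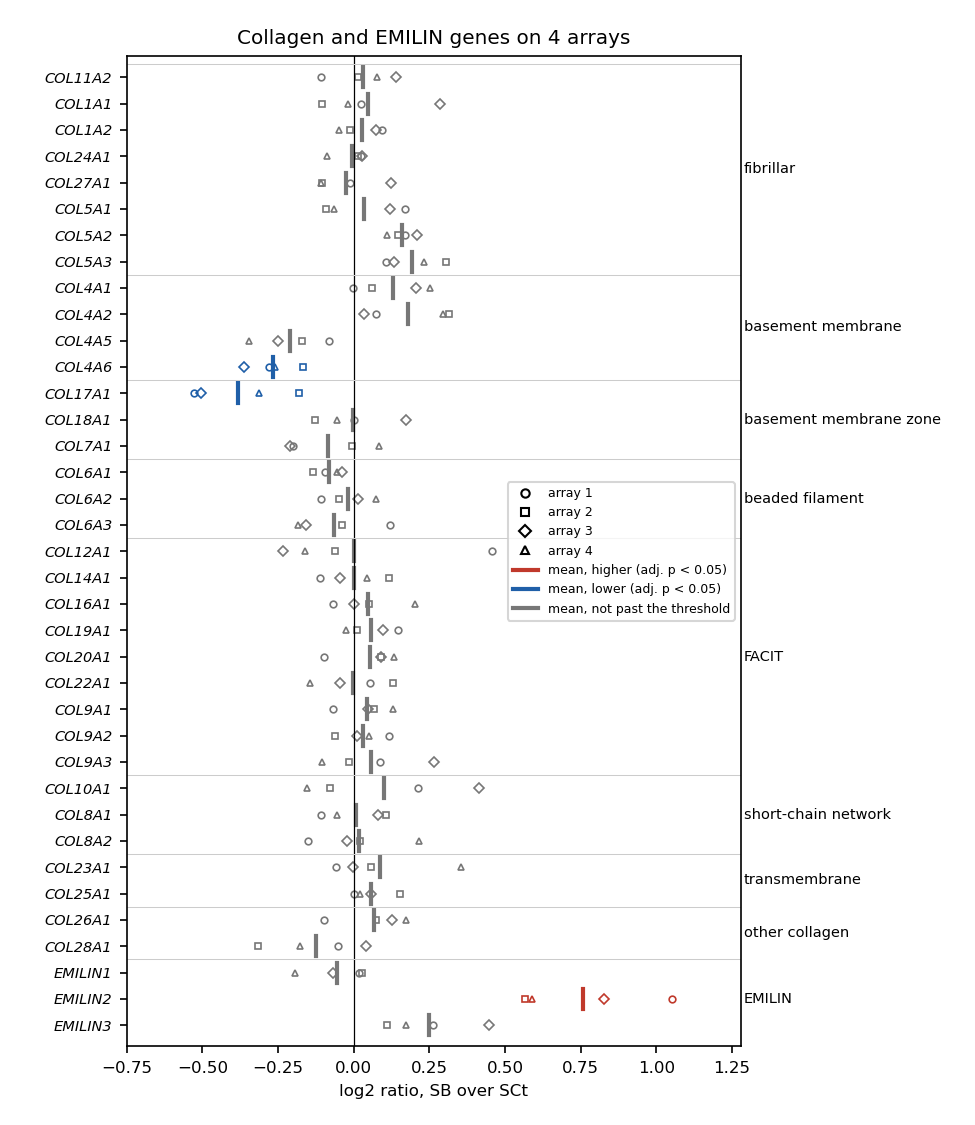
Log2 ratio of SB over SCt for the 37 genes tested, 1 symbol per array and a bar at the mean, grouped by type, with called genes in colour. EMILIN2 lies between 0.56 and 1.05 on the 4 arrays, COL17A1 between −0.53 and −0.18, and COL4A6 between −0.36 and −0.17.

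Of the 3 EMILINs, EMILIN2 was higher in SB cells. It is a matrix glycoprotein of the EMILIN family that is also known to bind death receptors. The intensity of its probe in SB cells was 217.5, 104, 189.5 and 123 on arrays 1 to 4, over a local background of 44.5 to 47. In SCt cells it was 52.5, 43, 64 and 51, over a background of 26 to 28, and the first 2 of these values were not well above background. The normalized log2 ratios were 1.05, 0.56, 0.83 and 0.59, of which the first pair is set against SCt spots at background. Arrays 3 and 4, with both channels well above it, gave values above 0 as well. The mean was 0.76 ± 0.23 (SD, n = 4), with an adjusted p of 0.000419 from limma, and without any filter on dim probes it was 0.000325. Where both channels had to be well above background on 4 arrays, EMILIN2 was not tested. The size is not determined, since it varied with the processing while the direction did not: the log2 ratio was 1.51 by normexp without an offset, 2.13 by the scanner software's ratio and 0.49 under median centring.

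EMILIN3 did not pass the threshold. Its log2 ratios were 0.26, 0.11, 0.45 and 0.17, above 0 on all 4 arrays, with a mean of 0.25 ± 0.15 (SD, n = 4) and an adjusted p of 0.0603 from limma. Both channels were well above background on every array, with intensities from 643.5 to 1935 in SB cells and from 391.5 to 963 in SCt cells. Without array 4 it was called (log2 ratio 0.27, limma, adjusted p = 0.0157), and it was under median centring (0.32, limma, adjusted p = 0.00805). EMILIN1, the member best known for its place at the surface of elastic fibres, had log2 ratios of 0.02, 0.03, −0.07 and −0.19. Its mean of −0.05 ± 0.10 (SD, n = 4) was within the spread between arrays.

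**Figure D3:**
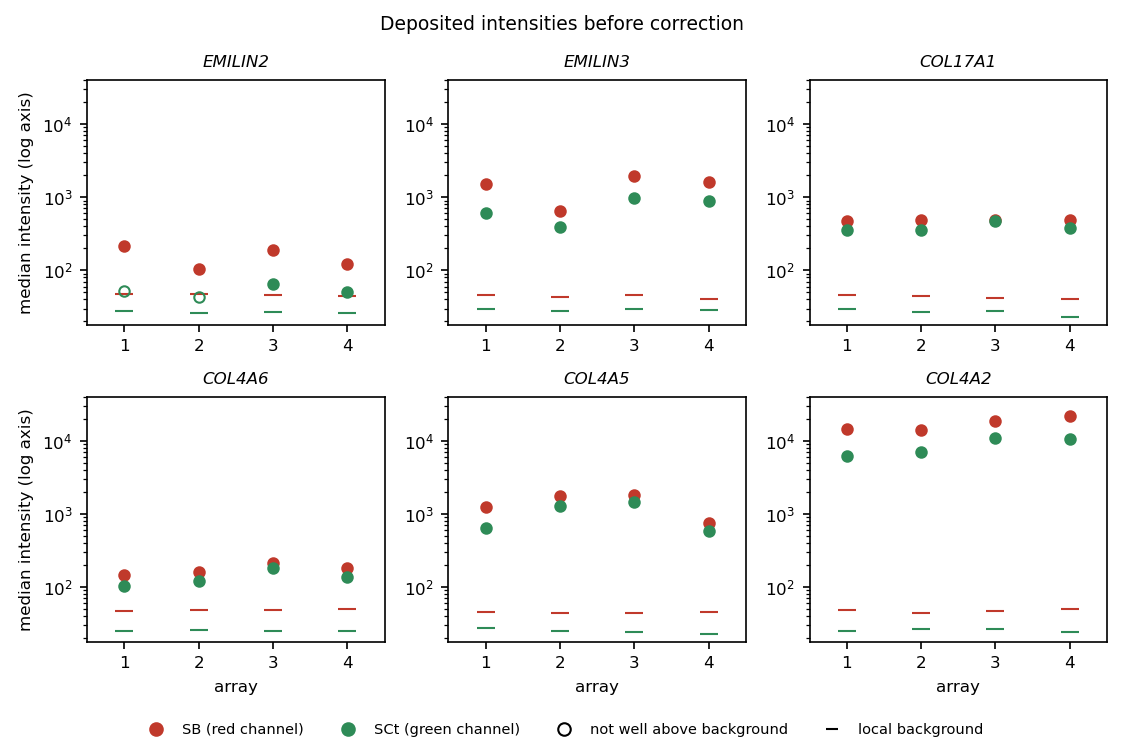
Deposited median intensities of 6 genes on arrays 1 to 4, on a log axis, for SB cells (red) and SCt cells (green), with open circles where the software did not call the spot well above background and dashes at the local background. EMILIN2 lies close to background in SCt cells (43 to 64), whereas COL17A1 lies well above it in both channels.

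Of the basement membrane chains, COL4A6 was lower in SB cells and its neighbour COL4A5 was not called. COL4A5 and COL4A6 join in the network of epithelial basement membranes, and COL4A1 and COL4A2 form the type IV collagen found in nearly all basement membranes. For COL4A6 the intensities were 148, 161, 214 and 180 in SB cells and 102, 122.5, 184 and 137 in SCt cells. The log2 ratios were −0.28, −0.17, −0.36 and −0.26, below 0 on every array. The mean of −0.27 ± 0.08 (SD, n = 4) had an adjusted p of 0.0249 from limma. This call was lost without array 1 (limma, adjusted p = 0.0803), without array 2 (limma, adjusted p = 0.0690) and without array 3 (limma, adjusted p = 0.152), while the log2 ratio stayed between −0.30 and −0.23 with each array left out in turn. It was lost as well with the trend and robust options (limma, adjusted p = 0.0530). Median centring moved the log2 ratio to −0.41, normexp without an offset to −0.39 and the scanner software's ratio to −0.38. COL4A6 was called under each of these (limma, adjusted p = 0.00208, 0.0145 and 0.0147), so the size varied with the processing. COL4A5 had log2 ratios of −0.08, −0.17, −0.25 and −0.34. They too were below 0 on 4 of 4 arrays, with a mean of −0.21 ± 0.11 (SD, n = 4) and an adjusted p of 0.0805 from limma, and median centring brought it to −0.13.

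COL4A1 and COL4A2 lay on the other side of 0. COL4A1 had log2 ratios of −0.00, 0.06, 0.20 and 0.25, with a mean of 0.13 ± 0.12 (SD, n = 4) and an adjusted p of 0.290 from limma. COL4A2 had 0.07, 0.32, 0.03 and 0.29, with a mean of 0.18 ± 0.15 (SD, n = 4) and an adjusted p of 0.159 from limma. Neither passed the threshold, except under median centring, where COL4A1 had 0.37 and COL4A2 0.38 (limma, adjusted p = 0.00288 and 0.00264). The mean of this pair minus the mean of COL4A5 and COL4A6 was 0.22, 0.36, 0.43 and 0.58 on arrays 1 to 4, a difference of 0.39 ± 0.15 (SD, n = 4) in log2 ratio. That contrast was chosen after the values were seen and is given without a test.

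The type IV genes lie in head-to-head pairs, in which both genes are transcribed outwards from a shared stretch of DNA. Their promoters are shown because the members of a pair lay on the same side of 0, and that of EMILIN2 because it was the member called higher. The sequences are from RefSeq (GRCh38.p14), whose promoter table held 32 of the 46 genes. The stretch between the starts of COL4A1, to its left, and COL4A2, to its right, is 126 bases at chr13:110307158-110307283 (plus strand). The 250 bases before the start of COL4A5 are chrX:108439588-108439837 (plus strand) and those before the start of COL4A6 that faces it are chrX:108439459-108439708 (minus strand). The starts of this pair are 379 bases apart, so that 121 bases belong to both windows. COL4A6 has another start in the table, and which of them the measured transcripts used was not tested. The 250 bases before the start of EMILIN2 are chr18:2846756-2847005 (plus strand). All are non-coding sequence before a start of transcription, and capitals mark matches, on either strand, to the AP-1 motif (TGANTCA), the GC box (GGGCGG), the CCAAT box, whose letters are its name, or the TATA box (TATAAA).
COL4A1 to COL4A2: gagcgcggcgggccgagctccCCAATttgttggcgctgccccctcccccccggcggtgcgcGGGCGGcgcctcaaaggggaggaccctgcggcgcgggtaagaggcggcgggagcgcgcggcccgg
COL4A5: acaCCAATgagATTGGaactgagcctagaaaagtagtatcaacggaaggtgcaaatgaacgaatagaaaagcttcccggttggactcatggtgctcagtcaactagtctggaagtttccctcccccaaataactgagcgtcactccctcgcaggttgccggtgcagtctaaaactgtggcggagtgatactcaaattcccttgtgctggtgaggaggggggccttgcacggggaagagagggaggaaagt
COL4A6: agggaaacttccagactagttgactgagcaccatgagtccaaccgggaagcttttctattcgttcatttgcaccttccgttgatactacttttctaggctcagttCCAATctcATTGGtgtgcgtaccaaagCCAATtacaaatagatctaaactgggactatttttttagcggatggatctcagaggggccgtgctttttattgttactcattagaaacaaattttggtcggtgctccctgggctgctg
EMILIN2: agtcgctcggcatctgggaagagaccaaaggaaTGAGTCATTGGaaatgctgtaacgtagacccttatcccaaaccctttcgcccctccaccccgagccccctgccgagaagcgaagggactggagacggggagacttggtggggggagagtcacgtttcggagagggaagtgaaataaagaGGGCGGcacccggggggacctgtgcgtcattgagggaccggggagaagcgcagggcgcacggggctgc

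Each of the 4 stretches held a CCAAT box, the pair of COL4A5 and COL4A6 sharing 2 of them. At least 1 was held by 32.0% of all 35116 windows of 250 bases before a start in the table. Among the 44 windows of the members it was 13 (29.5%), so the picked stretches show no excess in the members. The GC box was found between COL4A1 and COL4A2 and before EMILIN2, in 42.6% of all windows and in 25 of the 44 windows of the members (56.8%). Whether the members' share differs from that of all windows was not tested for any motif. The EMILIN2 window also had an AP-1 match, TGAGTCA, which began 217 bases before the start and shared 1 base with a CCAAT box. Such a match was present in 6.57% of all windows and in 2 of the 44 windows of the members (4.5%). No TATA box was found in the 4 stretches, while 10.7% of all windows and 7 of the 44 windows of the members (15.9%) had one. A match describes the letters of the window and says nothing of a factor's binding.

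Of the collagens of the basement membrane zone, COL17A1 was lower in SB cells. COL17A1, a transmembrane collagen, is a component of the hemidesmosomes by which basal keratinocytes hold on to the basement membrane. Its intensities were 475.5, 481, 491 and 488 in SB cells and 353.5, 361, 473 and 377 in SCt cells. The log2 ratios were −0.53, −0.18, −0.50 and −0.31, below 0 on 4 of 4 arrays, with array 2 nearest to 0. The mean of −0.38 ± 0.16 (SD, n = 4), a 1.30-fold lower level with a 95% interval of −0.53 to −0.23, had an adjusted p of 0.0105 from limma. By fall in the main setting, COL17A1 ranked 162 and COL4A6 434 of 16583 genes. Without array 3 COL17A1 was not called (log2 ratio −0.34, limma, adjusted p = 0.119), nor was it by the scanner software's ratios (−0.39, limma, adjusted p = 0.0604).

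The other collagens of that zone were not called. COL7A1, which forms the anchoring fibrils, had log2 ratios of −0.20, −0.01, −0.21 and 0.08 and a mean of −0.08 ± 0.14 (SD, n = 4). COL18A1, the source of endostatin, had 0.00, −0.13, 0.17 and −0.06 and a mean of −0.00 ± 0.13 (SD, n = 4). The 95% interval of COL18A1 ran from −0.14 to 0.13, and median centring moved it to 0.29, where it was called (limma, adjusted p = 0.0161).

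The fibrillar collagens gave no call by limma among the 8 of 11 genes tested. The share called over all genes tested was 4.20%, and a single call among 8 genes would make 12.5%. For 2 of the 8 the unadjusted p (limma) was under 0.05, which has no share over all genes beside it and is not read as a result. The log2 ratios of the 8 genes ran from −0.02 to 0.19 around a median of 0.03, and 6 were above 0. The type I chains, the main collagen of connective tissue, had means of 0.05 ± 0.17 for COL1A1 and 0.03 ± 0.07 for COL1A2 (SD, n = 4 each), and the probe of COL1A2 was spotted 10 times on each array. COL1A2 turned to −0.26 under median centring and was then called (limma, adjusted p = 0.0149). The class was highest at COL5A3 and COL5A2, chains of type V collagen, which sets the width of type I fibrils. COL5A3 had log2 ratios of 0.11, 0.30, 0.13 and 0.23, above 0 on every array, with a mean of 0.19 ± 0.09 (SD, n = 4) and an adjusted p of 0.0948 from limma. COL5A2 had 0.17, 0.15, 0.21 and 0.11, with a mean of 0.16 ± 0.04 (SD, n = 4) and an adjusted p of 0.139 from limma. COL5A1 had a mean of 0.03 at its brightest probe and 0.15 at the other (limma, unadjusted p = 0.0188). Median centring put COL5A1 at 0.24 (limma, adjusted p = 0.0367) and COL5A2 at 0.18 (limma, adjusted p = 0.0473), and COL11A2 was called there too.

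Type VI collagen, which forms beaded filaments, was measured by 3 of its 5 genes on the array. COL6A1 had −0.08 ± 0.04, COL6A2 −0.02 ± 0.08 and COL6A3 −0.06 ± 0.14 (SD, n = 4 each), and none was called. Under median centring COL6A2 moved to 0.24 (limma, adjusted p = 0.0150) and COL6A3 to −0.19 (limma, adjusted p = 0.0360).

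None of the remaining collagens was called by limma, and 0 of them had an unadjusted p under 0.05 at the brightest probe. The 9 fibril-associated collagens tested lay between −0.00 and 0.06 with a median of 0.04. The 3 short-chain collagens lay between 0.01 and 0.10 and the 2 transmembrane ones other than COL17A1 between 0.06 and 0.09. COL28A1 had −0.13 and COL26A1 0.07. Under median centring COL14A1, COL16A1, COL20A1, COL22A1 and COL28A1 were called. The SDs of the members ranged from 0.04 to 0.31, the widest being that of COL12A1, with log2 ratios of 0.46, −0.06, −0.23 and −0.16. Of 6 genes with several tested probes, the probes of none differed by over 0.5, and the widest gap was 0.23, in COL6A2 (−0.02 and −0.25, the latter with an unadjusted p of 0.00935 from limma) and COL16A1 (0.05 and −0.19, the latter with an unadjusted p of 0.0113 from limma). The dimmer probe of COL12A1 had 0.19 (limma, unadjusted p = 0.0389). COL12A1 and COL16A1 were singled out after their values were seen.

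**Figure D4:**
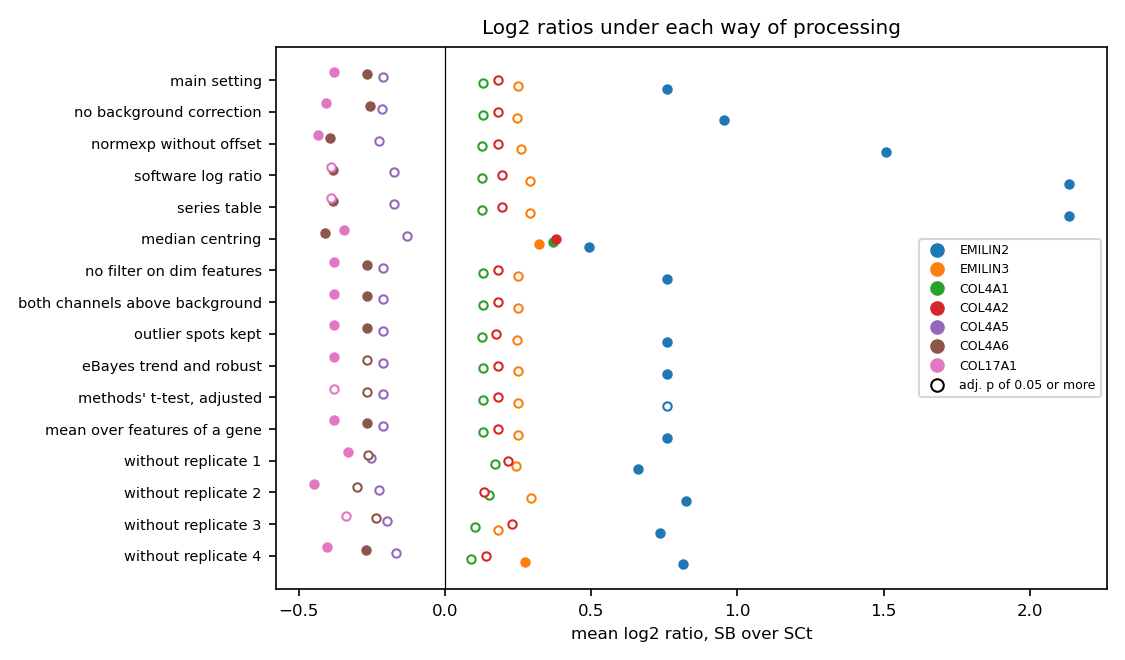
Mean log2 ratio of 7 members under the main setting and each other way of processing, filled where the adjusted p was under 0.05. EMILIN2 stays above 0 in every setting that tested it, from 0.49 to 2.13, and COL17A1 and COL4A6 stay below 0.

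The genes that make, cross-link, bind or cleave collagen are given from lists drawn up beside the members. Of 31 genes of collagen synthesis and processing, 28 were tested, with 2 called higher and 1 lower. Over all genes tested 1.22% were called higher and 2.97% lower. The median log2 ratio of the list was −0.00. An unadjusted p under 0.05 (limma) was found for 8 genes, a count with no share over all genes beside it that is not read as a result. P3H2, a prolyl 3-hydroxylase that modifies type IV collagen, was higher. Its log2 ratios were 0.79, 0.66, 0.47 and 0.53, and the mean of 0.62 ± 0.14 (SD, n = 4), a 1.53-fold rise, had an adjusted p of 0.000424 from limma. LOX, which oxidizes lysines so that collagen and elastin are cross-linked, was higher too. Its log2 ratios were 0.41, 0.64, 0.56 and 0.45, with a mean of 0.52 ± 0.11 (SD, n = 4), a 1.43-fold rise, and an adjusted p of 0.000746 from limma, and the scanner software's ratio gave 0.79.

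LOXL2, a relative of LOX that acts on type IV collagen, was lower. Its log2 ratios were −0.57, −0.40, −0.48 and −0.19, with a mean of −0.41 ± 0.16 (SD, n = 4), a 1.33-fold fall, and an adjusted p of 0.00674 from limma, and without array 3 it was not called (limma, adjusted p = 0.0982). LOXL4, singled out after its values were seen, had −1.11 and −0.73 on arrays 1 and 2 but −0.08 and −0.05 on arrays 3 and 4. Its mean of −0.49 ± 0.52 (SD, n = 4) did not exceed that spread (limma, adjusted p = 0.0829). The prolyl 4-hydroxylase and chaperone genes P4HA1, P4HA2, P4HA3, P4HB and SERPINH1, which act in the folding of collagen chains, lay between −0.06 and 0.07, and none was called. These genes were picked from the list, and others of it that were not called lay further from 0. PLOD2 had −0.20 (limma, adjusted p = 0.0747) and PCOLCE2 −0.24, while PPIB had 0.15 and COLGALT1 0.13.

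Among 14 tested genes of elastic fibres, the structures to which EMILINs belong, 1 was called, lower, and the median was −0.00. An unadjusted p under 0.05 (limma) was found for 3 of them, again with no share over all genes at that threshold. Over all genes tested 2.97% were called lower, the share to set beside this list and the collagenases below. LTBP2, which binds fibrillin microfibrils, had log2 ratios of −0.63, −0.42, −0.50 and −0.09. Its mean of −0.41 ± 0.23 (SD, n = 4), a 1.33-fold fall, had an adjusted p of 0.0153 from limma, and it was not called without array 1 (0.0658), array 2 (0.0596) or array 3 (0.169). ELN, which encodes elastin, had 0.06, and FBN1 was at background on all arrays. Of 12 collagen receptors tested none was called by limma and 0 had an unadjusted p under 0.05, with log2 ratios from −0.07 to 0.15.

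Of 5 collagenases and gelatinases tested, MMP1, the interstitial collagenase, was the 1 called by limma, at −2.07, −1.26, −1.68 and −1.60 on the 4 arrays. The other genes of that list lay between −0.10 and 0.12. The fibrillar collagens that MMP1 cleaves, COL1A1 and COL1A2 among those tested, are those given above with means of 0.05 and 0.03.

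**Figure D5:**
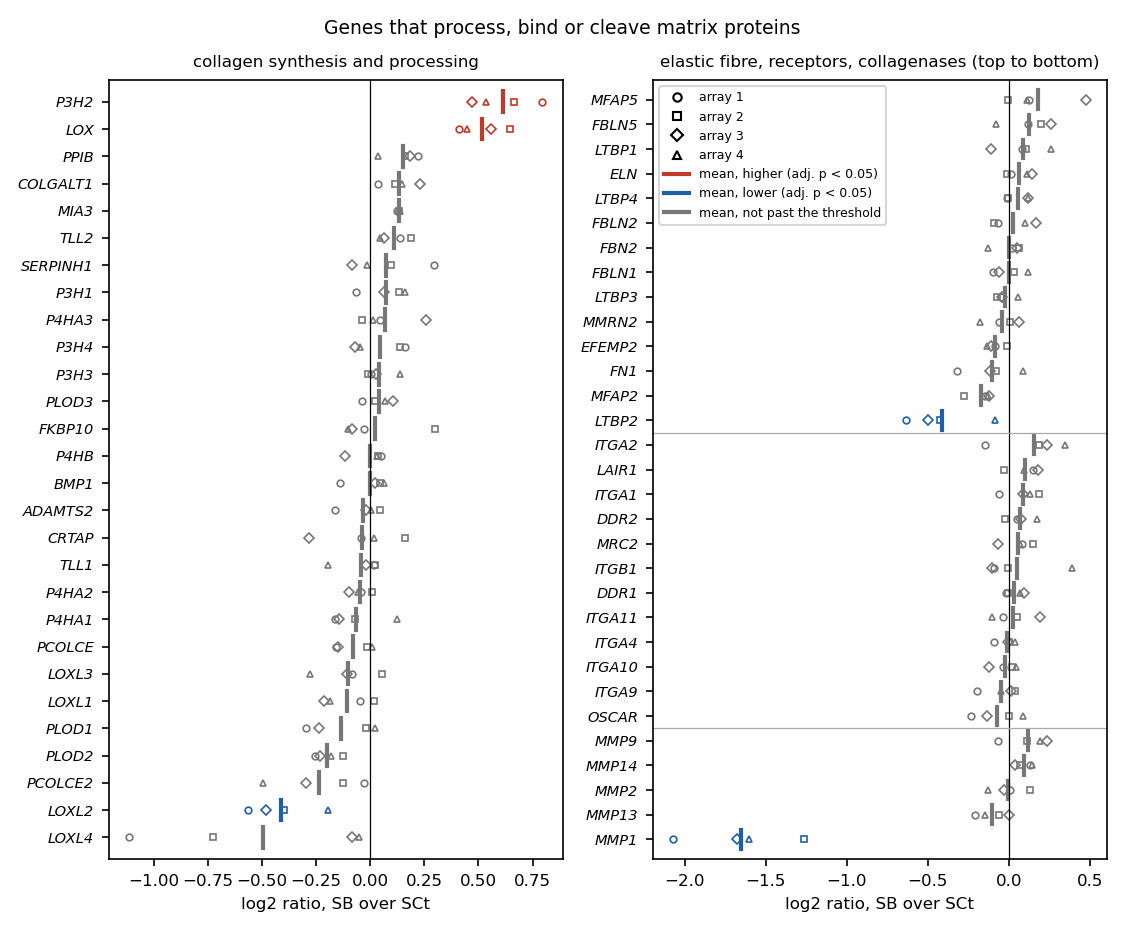
Log2 ratio of SB over SCt for the tested genes of collagen synthesis and processing (left) and of elastic fibres, collagen receptors and collagenases (right), 1 symbol per array and a bar at the mean. P3H2 (0.62) and LOX (0.52) lie above 0 on all arrays, LOXL2, LTBP2 and MMP1 below it, and LOXL4 is spread from −1.11 to −0.05.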

How the data were processed

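The authors deposited, for each array, the output of Agilent Feature Extraction 10.5.1.1 (submitters' processing notes): median intensities of both channels with a local background, not normalized, and the software's log10 ratio of red over green, already background-subtracted and dye-normalized. The authors also deposited a series table of log2 ratios. Of its 34127 probes, 98.7% to 99.1% per array lay within 0.001 of the ratio of the software's processed signals (red over green), which settles its base and direction, and its array medians were −0.02, 0.02, 0.01 and 0.01.

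Probes were named through their accessions in RefSeq (GRCh38.p14). Of these, 24826 matched and 9301 did not. In R 4.3.3 with limma 3.58.1, backgrounds were corrected by normexp (offset 50) and controls and outlier spots removed (814 to 1168 of 43118 spots per array; 0 were saturated). Ratios were normalized by loess, spots of a probe averaged, probes kept that 1 channel showed well above background on 4 arrays, with values on at least 2, and an intercept tested with lmFit and eBayes. A probe with 10 spots met this where at least 0.5 of them did. The brightest kept probe stood for a gene. All arrays lay on 1 slide, so no block was possible. The design named foreground intensities, which here are medians. The steps were tested on simulated arrays, the results of which are not given here. The 1.2-fold band was set after results were seen, and a wider one held more genes in a first run.

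Named with values are the EMILINs, the type I, III, IV, V, VI, VII, XVII and XVIII chains and every called member. Some members whose probes or channels differed are named too, though not COL14A1 or COL19A1. Up to 3 called genes per direction of each further list are given. The members and lists were chosen with earlier results of these data known.

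Alternatives changed the background (none, or normexp without offset), the ratios (the software's or the series table's), the normalization (median centring), the filter (none, or both channels), the outlier spots (kept), the test (trend and robust eBayes, or the methods' t-test), the arrays (each left out) and the probe (a gene's mean).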

Additional observations from a re-analysis of the deposited data

Results flagged for a closer look

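COL24A1, a fibrillar collagen, was singled out because 1 array lay far from the others. Its log2 ratio was −0.09 on array 4, and arrays 1 to 3 gave 0.01 to 0.03. That gap made up 0.873 of the span of the 4 values, more than Dixon's 95% limit allows. All 4 values are small, and the gene was not called. Of 43 genes tested in this way 1 was marked, and chance marks about 5% of groups. The reason for the value on array 4 was not tested.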

How the results depend on the processing

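MTDH was lower in SB cells under every alternative (log2 ratio −3.24 to −3.06) and was called except under the methods' t-test, which left it at −3.18 with an adjusted p of 0.144. The count of 3 called members became 18 under median centring and 0 under the methods' t-test, which called 0 of 16583 genes after adjustment but 2466 genes, 8 of them members, at an unadjusted p under 0.05. With each array left out in turn it lay between 1 (without array 3, when EMILIN2 alone was called) and 4 (without array 4, when EMILIN3 was added). It was 2 or 3 under all other alternatives. EMILIN2 was not tested where both channels had to be above background. Median centring also moved COL18A1 from −0.00 to 0.29, COL1A2 from 0.03 to −0.26 and COL6A2 from −0.02 to 0.24, all of them called there with the opposite sign.

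The cause of these changes was not tested. Median centring corrects no dye effect that varies with intensity. EMILIN2 was well above background in SCt cells on arrays 3 and 4, and its log2 ratio was 0.66 without array 1 and 0.82 without array 2. The alternative for bounds was not run, since it covers probes at background in 1 channel on all 4 arrays, and no member had that with the other channel well above background on all 4. The ratios of EMILIN2 on arrays 1 and 2 were fitted as measured. Each ratio sets SB against SCt cells on the same array, so the test on the ratios is paired by array.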
